A study of Bos taurus with 16 samples.

Results

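The report concerns 9 genes of the tight junction, the adherens junction and the desmosome in bovine blastocysts: CDH1, CTNNB1, TJP1, OCLN, CLDN4, CLDN6, CLDN7, F11R and DSP. They were taken by gene symbol. Each symbol was found at 1 locus of the 22358 loci counted in the series, none of these loci was listed under a second name, and all 9 passed the filter on low counts.

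RNA-Seq was performed on 16 pools of expanded blastocysts from 8 Holstein cows, with 4 cows per diet and 2 pools per cow. Control cows received a basal diet without added methionine, and the cows of the Methionine group received the same basal diet with rumen-protected methionine, a form that escapes breakdown in the rumen, from calving until the embryos were flushed. Pools are named by diet, cow and pool, so that C4.1 is the first pool of Control cow 4. The labels call the material IVF embryos, whereas the methods of the study describe embryos flushed from the uterus of superovulated and inseminated cows. The pools did not all hold the same number of blastocysts, and the RNA of each pool was amplified before the libraries were made. By the study's list, most Methionine pools held more blastocysts than the Control pools, and C4.1, C4.2 and M8.2 held the fewest. The concentration of the amplified RNA also differed between pools. Its quality number was lower in most Methionine pools than in any Control pool with a value. The diet is thus partly tied to the number of blastocysts and to RNA quality, and their parts were not tested. Since a pool holds trophectoderm and inner cell mass together, fewer cells of a type and less RNA per cell cannot be told apart.

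The trophectoderm of the blastocyst is an epithelium. E-cadherin, bound to the catenins in the adherens junction, holds its cells together, and tight junctions seal the space between them so that fluid can collect in the blastocoel. In tight junctions, claudins, occludin and junctional adhesion molecules span the membrane and ZO proteins tie them to actin, while desmosomes anchor keratin filaments.

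The total count was between 5624126 and 7826542 in 15 pools and 1745048 in pool C3.2. As in the methods of the study, C3.2 was left out of the comparison of the diets, which leaves 7 Control and 8 Methionine pools, and its values are given apart. Levels are CPM, the count of a gene scaled by the total count of its pool, and they are compared between pools, not between genes, because transcript length was not used here. In the 15 pools, 3 counts were worth from 0.383 to 0.533 CPM, and a gene with at least 3 counts was taken as present. Of 11 genes expressed in blastocysts, 8 were present in all 15 pools, namely the keratin genes KRT8 and KRT18 and POU5F1, SOX2, GATA2, GATA3, GATA6 and TFAP2C. NANOG was present in 13 pools, IFNT2 in 12 and CDX2 in 11, and CDX2 was at 0 in 3. Leukocyte markers summed to 2295 CPM in C2.1 against at most 30.59 CPM in the other 6 Control pools and at most 6.681 CPM in the Methionine pools, with CD3E at 0. Of the sum in C2.1, LAPTM5 gave 1239 CPM and PTPRC only 3.2 CPM. Stromal markers summed to 592.3 CPM in C2.1, of which VIM gave 583.7 CPM, and to 138.2 CPM in C4.2, of which COL1A2 gave 137.4 CPM, the highest of the other pools. The sum of 8 uterine epithelium markers ran from 0.8998 to 36.64 CPM in the Control pools and from 2.3 to 174.7 CPM in the Methionine pools. Of the highest sum, in M8.1, MSX1 alone gave 174.1 CPM. FOXA2 reached 40.51 CPM in M8.2, and PGR 24.93 CPM in M6.1. MSX1 was present in all 15 pools, FOXA2 in 4 and PGR in 1, and PAEP and OXTR were at 0.

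No member passed the threshold for a difference between the diets. The transcripts of 7 members were found in all 15 pools, and those of CDH1 and CLDN7 were scarce and missing from some pools. The spread between pools was wide, and much of it lay between the 2 pools of the same cow. The plot of the 9 genes by pool shows these values.

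**Figure D1:**
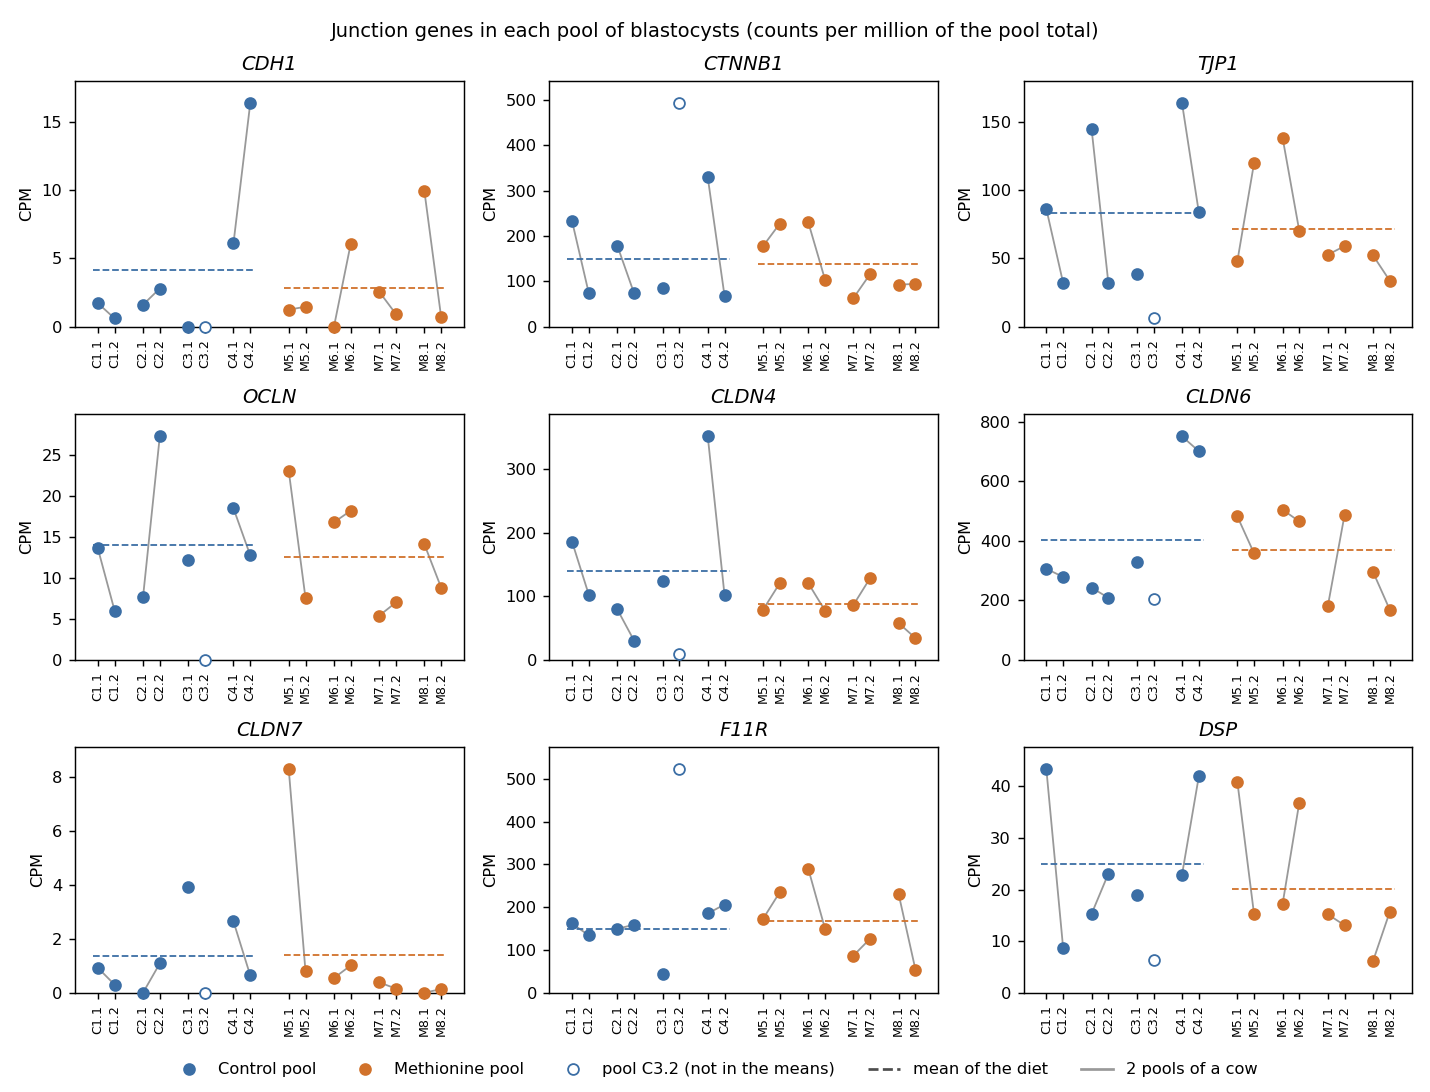
CPM of each junction gene (vertical axes, linear from 0) in each pool (horizontal axis), with Control pools in blue and Methionine pools in orange. Grey lines join the 2 pools of a cow, dashed lines are the means of 7 Control and 8 Methionine pools, and the open circle is pool C3.2. The diets overlap for every gene, C4.1 is the highest of the 15 pools for CTNNB1, TJP1, CLDN4 and CLDN6, and C3.2 lies above them for CTNNB1 and F11R.

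Among the genes of the adherens junction, CTNNB1 (XLOC_010928) encodes beta-catenin, which binds the tail of E-cadherin and also carries the Wnt signal to the nucleus. Its level in the Control pools was lowest at 67.88 CPM, had a median of 85.67 CPM and was highest at 329.0 CPM, and in the Methionine pools the same values were 63.12, 109.9 and 230.0 CPM. The lowest and the highest Control pool, C4.2 and C4.1, came from the same cow, and the range of the Methionine pools was covered by that of the Control pools except for M7.1 at 63.12 CPM. The means were 148.6 ± 101.9 CPM (SD, n = 7) for Control and 138.0 ± 64.6 CPM (SD, n = 8) for Methionine. The log2 fold change, Methionine over Control, was −0.19 with an FDR of 1.0 in the exact test of edgeR.

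CDH1 (XLOC_006789), the gene of E-cadherin itself, was sparsely counted. Control pools ran from 0 over a median of 1.715 to 16.33 CPM, and Methionine pools from 0 over a median of 1.346 to 9.883 CPM. It was present in 13 of 15 pools, with no count in C3.1 and M6.1, where a count of 0 allows a level of up to 0.404 and 0.409 CPM. Over all 15 pools the count had a median of 11 and a maximum of 127, and 34.7% of all CDH1 counts came from C4.2. With means of 4.161 ± 5.718 CPM (SD, n = 7) and 2.847 ± 3.402 CPM (SD, n = 8), the log2 fold change was −0.46 (edgeR exact test, FDR 1.0). The 95% interval of this difference in limma voom, in which cows entered as random effects, ran from −2.76 to 2.13, so that at this depth changes of more than 4-fold either way would have lain within it.

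The tight junction members include 3 claudins, the strand proteins that set which ions pass between cells. CLDN6 (XLOC_012889), a claudin of early embryonic epithelia, was lowest at 208.3 CPM, had a median of 305.9 CPM and was highest at 751.5 CPM in the Control pools. In the Methionine pools it ran from 168.2 over a median of 411.6 to 504.9 CPM. Both pools of Control cow 4, at 751.5 and 701.9 CPM, stood above the other 13 pools, and the other 5 Control pools, at up to 329.3 CPM, lay inside the Methionine range. The group means were 402.6 ± 225.4 CPM (SD, n = 7) for Control and 367.6 ± 139.4 CPM (SD, n = 8) for Methionine, a log2 fold change of −0.19 (edgeR exact test, FDR 1.0).

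CLDN4 (XLOC_013080), a barrier-forming claudin that is also a receptor for a bacterial enterotoxin, had the member fold change farthest from 0. Its level ran from 30.02 over a median of 102.0 to 351.5 CPM in the Control pools and from 33.89 over a median of 82.46 to 128.7 CPM in the Methionine pools. Only C1.1, at 185.6 CPM, and C4.1 lay above the highest Methionine pool, and C2.2 was the lowest of all 15. The means of 139.2 ± 104.7 CPM (SD, n = 7) and 87.89 ± 33.44 CPM (SD, n = 8) gave a log2 fold change of −0.72 with an FDR of 0.734 in the edgeR exact test and 0.729 in its quasi-likelihood test. Without cow 4 the log2 fold change was −0.30, and without cow 2 it was −1.03.

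The ratio of CLDN4 to CLDN6 counts, which does not depend on the pool total, was between 0.144 in C2.2 and 0.607 in C1.1 among the Control pools, with a median of 0.366. Among the Methionine pools it was between 0.163 and 0.481, with a median of 0.22. The balance of these claudins therefore differed by 4.21-fold between the pools at the ends of the range, both of them Control pools, and the Methionine pools lay inside that range.

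CLDN7 (XLOC_008656), a claudin often found along the lateral membrane of epithelia, was the other member with low counts. It ran from 0 over a median of 0.9235 to 3.906 CPM in the Control pools and from 0 over a median of 0.4642 to 8.268 CPM in the Methionine pools. It was present in 10 of 15 pools at a median count of 5, and a single pool, M5.1, held 40.8% of its counts. The means were 1.356 ± 1.407 CPM (SD, n = 7) and 1.411 ± 2.792 CPM (SD, n = 8), and the log2 fold change of −0.23 (edgeR exact test, FDR 1.0) turned to 0.32 when cow 3 was left out. The means of CPM ran the other way from this log2 fold change, which is on TMM-scaled counts, and with scaling by pool totals only it was 0.05.

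Of the other tight junction members, OCLN (XLOC_010191), the gene of occludin, ran from 5.998 over a median of 12.73 to 27.24 CPM in the Control pools. In the Methionine pools it ran from 5.366 over a median of 11.42 to 23.01 CPM. The highest Control pool, C2.2, and one of the low ones, C2.1 at 7.646 CPM, were from the same cow, and M5.1 and M5.2, at 23.01 and 7.521 CPM, also lay far apart. Means of 13.97 ± 7.128 CPM (SD, n = 7) and 12.58 ± 6.36 CPM (SD, n = 8) gave a log2 fold change of −0.17 (edgeR exact test, FDR 1.0).

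TJP1 (XLOC_010719) encodes ZO-1, the scaffold that links claudins and occludin to actin. The Control pools fell into a low set of 3 (C1.2, C2.2 and C3.1, between 32.03 and 38.66 CPM) and 4 pools between 83.82 and 163.5 CPM, with a median of 83.82 CPM. The Methionine pools ran from 33.62 over a median of 55.79 to 138.4 CPM, all within the Control range. The means were 82.96 ± 53.91 CPM (SD, n = 7) and 71.68 ± 37.22 CPM (SD, n = 8), and the log2 fold change was −0.26 (edgeR exact test, FDR 1.0).

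F11R (XLOC_015453) encodes junctional adhesion molecule A, an immunoglobulin-like protein of the tight junction membrane, and was the only member with a positive log2 fold change, at 0.16 (edgeR exact test, FDR 1.0). Control pools ran from 43.51 over a median of 159.1 to 206.2 CPM and Methionine pools from 53.88 over a median of 161.1 to 289.8 CPM. Except for C3.1, at 43.51 CPM, the Control pools lay between 133.9 and 206.2 CPM, and the low Methionine pools were M8.2 and M7.1, at 53.88 and 87.01 CPM. The means were 148.5 ± 51.98 CPM (SD, n = 7) and 168.0 ± 80.01 CPM (SD, n = 8). Leaving out cow 3, of which C3.1 was the only pool in the fit, gave a log2 fold change of 0.01.

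DSP (XLOC_012112) encodes desmoplakin, the plaque protein that binds keratin filaments to the desmosome. It ran from 8.698 over a median of 22.91 to 43.27 CPM in the Control pools and from 6.125 over a median of 15.43 to 40.93 CPM in the Methionine pools. Cow 1 gave both the lowest and the highest Control pool. The means were 24.88 ± 13.06 CPM (SD, n = 7) and 20.02 ± 12.16 CPM (SD, n = 8), a log2 fold change of −0.37 with an FDR of 0.999 in the edgeR exact test.

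Between the diets, 0 of 9 members were called by the edgeR exact test at an FDR under 0.10 and a change of at least 2-fold. Of 10519 loci tested, 110 were called (1.05%), of which 81 were higher in Control and 29 higher in Methionine. The quasi-likelihood test of edgeR, limma voom and DESeq2 also called 0 members, against 0, 0 and 67 of all loci, and 0 members had an unadjusted p under 0.05 in either edgeR test. Standard errors from DESeq2 were between 0.33 for CLDN6 and 1.15 for CLDN7 on the log2 scale. The exact test treats pools as independent, although 2 pools share a cow.

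The log2 fold change was below 0 for 8 of 9 members, with a median of −0.23, beside a median of −0.05 and 53.5% of loci below 0 over all loci tested. On cow means of log2 CPM, 5 of 9 members were lower in Methionine, and CDH1, CTNNB1, TJP1 and F11R were not. The sign rested in part on cow 4: without it the median of the members was 0.02, and the values of CDH1, CTNNB1, TJP1 and CLDN6 became 1.17, 0.02, 0.04 and 0.36. Without pool C2.1, where the sum of leukocyte markers was highest, the median was −0.25 and 0 members were called, while TJP1 moved to −0.03 and CLDN7 to −0.44.

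**Figure D2:**
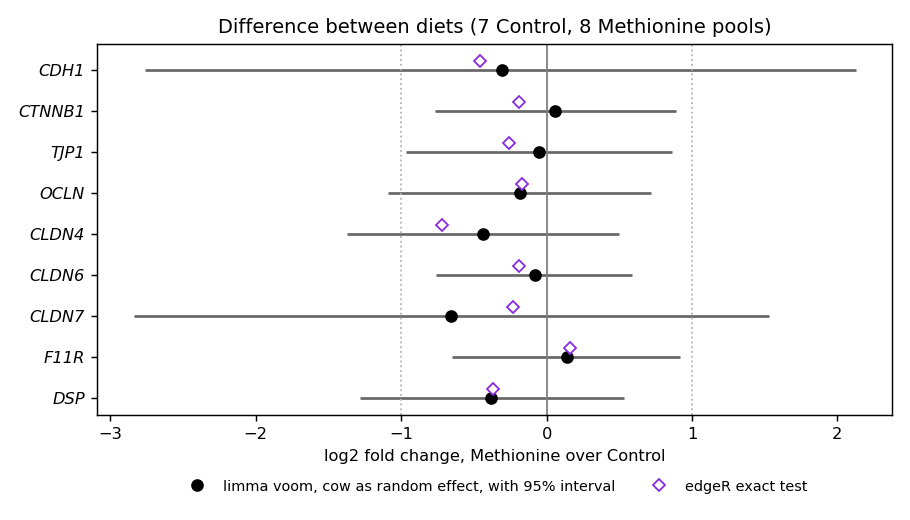
Log2 fold change of each junction gene, Methionine over Control (horizontal axis), from limma voom with random cow effects (black points, with lines for the 95% interval) and from the edgeR exact test (open diamonds), in 7 Control and 8 Methionine pools. All 9 intervals include 0, and those of CTNNB1, TJP1, CLDN6 and F11R stay between the dotted lines at a 2-fold change either way.

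The intervals from limma voom show how large a difference these pools leave room for. The fit used the same within-cow correlation, 0.035, for all loci, so it treats the pools as nearly independent. By their medians, pools of the same cow were more alike than pools of different cows for CLDN6, F11R, CDH1, OCLN and CLDN7 (given below). The intervals of these members may therefore be too narrow. All 9 intervals included 0. For 4 members the interval lay inside a 2-fold change either way, namely from −0.77 to 0.89 for CTNNB1, from −0.97 to 0.86 for TJP1, from −0.76 to 0.59 for CLDN6 and from −0.65 to 0.92 for F11R. Those of OCLN (−1.09 to 0.72), CLDN4 (−1.37 to 0.5) and DSP (−1.28 to 0.53) reached past a 2-fold lower level in Methionine, and that of CLDN7 ran from −2.84 to 1.53. The interval of CLDN4 thus leaves room for a level more than 2-fold lower, and its missed threshold does not show equal levels.

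Cows are the independent units of the design, so the mean log2 CPM of each cow was also compared. Cow means of Control and Methionine did not stand apart for any of the 9 members, against 249 of 10519 loci (2.37%). In the exact two-sided permutation test over the 70 assignments of 8 cows, whose smallest possible p is 0.0286, the p-values of the members ran from 0.371 for DSP and 0.4 for CLDN4 to 0.971 for CDH1 and TJP1. Of 11 genes of blastocyst identity, 1 had cow means apart, KRT18, which was lower in the Methionine cows (p = 0.0286 in the exact permutation test). It is named here after its values were seen, with a log2 fold change of −0.54 and an FDR of 0.616 in the edgeR exact test. KRT8, which pairs with it in filaments, had a log2 fold change of −1.1 and p = 0.171 in the same permutation test.

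On the scale of linear CPM, cow 4 had the highest mean for 5 of the members, with 11.21 CPM for CDH1, 123.7 CPM for TJP1, 226.6 CPM for CLDN4, 726.7 CPM for CLDN6 and 32.41 CPM for DSP. Cow 5 was highest for CLDN7, at 4.53 CPM, and for CTNNB1, at 202.3 CPM against 198.5 CPM for cow 4. Cow 6 was highest for OCLN and F11R, at 17.47 and 219.7 CPM. At the low end, Control cow 3, with 1 pool, was lowest for CDH1 at 0 CPM, CTNNB1 at 85.67 CPM, TJP1 at 38.66 CPM and F11R at 43.51 CPM. Cow 8 was lowest for DSP at 10.89 CPM, CLDN4 at 45.69 CPM and CLDN7 at 0.0675 CPM, Control cow 2 for CLDN6 at 225.3 CPM and cow 7 for OCLN at 6.178 CPM. Both ends of the range thus held cows of both diets.

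Differences between the 2 pools of a cow were taken as the absolute difference of log2(CPM + 1), for the 7 cows with 2 pools in the comparison. The median over cows was 0.22 for CLDN6 and 0.44 for F11R, the lowest of the members. It was 0.57 for CLDN7, 0.62 for OCLN, 0.75 for CLDN4, 0.9 for CDH1 and 0.97 for TJP1, and it was highest for DSP, at 1.06, and CTNNB1, at 1.14. CLDN6 and F11R transcripts were therefore much alike in the pools of most cows, while beta-catenin and desmoplakin transcripts differed by about 2-fold.

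For CTNNB1, C4.1 had 329.0 CPM and C4.2 67.88 CPM, whereas the same pools had 751.5 and 701.9 CPM of CLDN6. TJP1 differed most within cow 2, with 144.6 CPM in C2.1 and 32.03 CPM in C2.2, and DSP most within cow 1, with 43.27 and 8.698 CPM. The largest F11R gap was within cow 8, with 229.7 CPM in M8.1 and 53.88 CPM in M8.2.

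**Figure D3:**
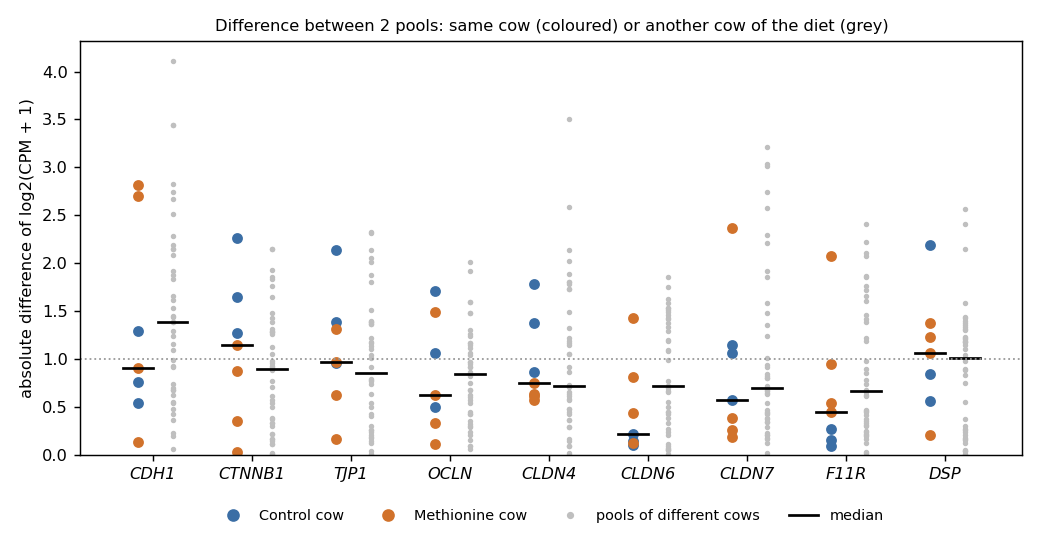
Absolute difference of log2(CPM + 1) between 2 pools (vertical axis) for each junction gene, with coloured points for the 2 pools of a cow (7 cows), grey points for the 42 pairs of pools from different cows of the same diet, black bars for medians and a dotted line at 1. Medians within cows are lowest for CLDN6 (0.22) and highest for CTNNB1 (1.14).

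Between cows of the same diet, 42 pairs of pools gave medians of 0.72 for CLDN6, 0.67 for F11R, 0.72 for CLDN4, 0.89 for CTNNB1, 0.86 for TJP1 and 1.01 for DSP. By their medians, the pools of a cow differed for CTNNB1, TJP1, CLDN4 and DSP at least as much as pools of different cows, and for CLDN6, F11R, CDH1, OCLN and CLDN7 less. Over all members, 24 of 63 pairs within cows (38.1%) and 164 of 378 pairs between cows (43.4%) were at least 1 apart on the log2(CPM + 1) scale, beside 41.8% and 42.7% over all loci tested. This scale understates the gaps of CDH1 and CLDN7, which had low counts. The medians over all loci were 0.8 within and 0.86 between cows.

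The biological coefficient of variation that edgeR estimated from the 15 pools was lowest for CLDN6, at 0.47, followed by F11R at 0.5, CTNNB1 at 0.55, CLDN4 at 0.58, TJP1 at 0.59, DSP at 0.66 and OCLN at 0.71. CDH1 and CLDN7, the members with low counts, had 1.39 and 1.49. Loci with a mean CPM within 1.5-fold of a member had median values of 0.45 for the window of CLDN6, 0.48 for F11R, 0.49 for CTNNB1, 0.51 for CLDN4, 0.54 for TJP1 and 1.39 for CDH1. For OCLN, DSP and CLDN7 the windows had 0.86, 0.74 and 1.88, above the members' own values. Over all loci the median was 0.92.

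Levels of several members were high or low in the same pools. C4.1 was above the median of the 15 pools for 9 of 9 members and highest for 4, while M8.2 was above it for 0 of 9. C4.1 and M8.2 are the extremes of the 15 pools, and both were among those with the fewest blastocysts. C4.2, also among those with the fewest, was above the median for 5 of 9 members, with a summed level of 1233 CPM. The share of all loci above their medians in these pools was not computed, so the counts are not shown to be particular to junction genes. C1.2 and M7.1 were each above the median for 1 of 9. The summed level of the members was 1831 CPM in C4.1, 409.1 CPM in M8.2 and 492.2 CPM in M7.1. The blastocyst marker genes summed to 4830 CPM in C4.1 and 4659 CPM in M8.2, of which KRT18 gave 3616 and 3552 CPM. Single markers differed between C4.1 and M8.2, with 0.1648 against 36.19 CPM for NANOG, 45.83 against 103.7 CPM for GATA6 and 395.3 against 199.2 CPM for KRT8. The part of the cell make-up or of the number of blastocysts in these levels was not tested. After TMM normalization, an alternative added after the data were seen, C4.1 was again above the median for 9 members and M8.2 for 0.

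CTNNB1, F11R, CLDN4 and CLDN6 followed TJP1 across the pools to some extent, with Spearman correlations of log2 CPM over 15 pools of 0.66, 0.59, 0.55 and 0.51. For CDH1, DSP, OCLN and CLDN7 the correlation with TJP1 was 0.27, 0.15, 0.02 and −0.01. Among 4857 other loci with a gene name and at least 10 counts in each pool, those most like TJP1 were HNRNPUL1 (0.92), RHOB (0.89), ACTR2 (0.89), YBX1 (0.88) and RAB21 (0.87). The loci most like CDH1, among 4858, were SUPV3L1 (0.82), NAA30 (0.8), PDHX (0.8), CCDC68 (0.78) and ATXN2 (0.78), while CTNNB1 had −0.18. These are descriptions over pools that share cows, library depth and the amplification step, and for CDH1 they rest on low counts.

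Other genes of the junctions were taken from 7 lists of 83 symbols, of which 74 were found and 39 passed the filter. Of these, 0 were called by the edgeR exact test, beside 1.05% of all loci, and 0 had cow means apart, beside 2.37%. The log2 fold change was below 0 for 26 of the 39, with a median of −0.18. Of the 74 found, 24 were present in all 15 pools. The map of junction genes by pool gives the pattern of 37 of them.

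**Figure D4:**
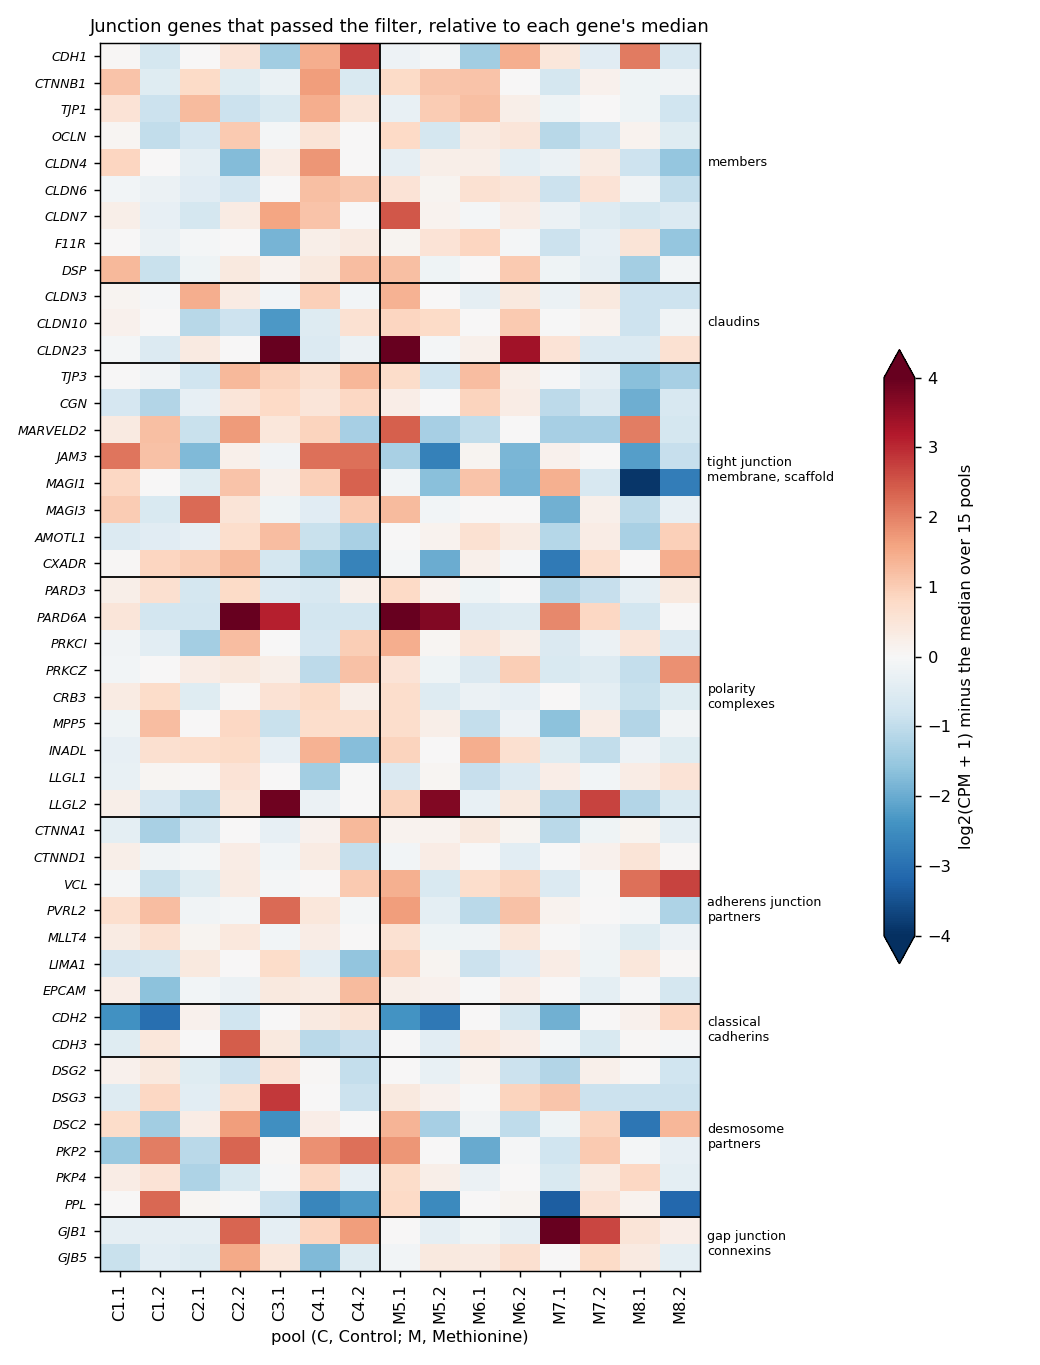
Log2(CPM + 1) of 46 junction genes (rows: 9 members and 37 partners, grouped by list) in 7 Control and 8 Methionine pools (columns), as the difference from the median of the gene over the 15 pools, with red for higher and blue for lower and colours capped at 4. All 9 members are above their medians in C4.1 and none is above it in M8.2, the extremes of the 15 pools. Between the diets, 0 of these partners were called.

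Of 21 claudin names in the files, members included, 3 were present in all 15 pools (CLDN4, CLDN6 and CLDN10), 7 in some pools, and 11 had at most 2 counts in every pool. CLDN10, a claudin that forms ion-selective pores, had 39.2 ± 22.5 CPM (SD, n = 7) in Control and 62.95 ± 26.72 CPM (SD, n = 8) in Methionine. Its lowest pool was C3.1 at 9.16 CPM and its highest M6.2 at 103.5 CPM, the groups overlapped, and the log2 fold change was 0.64 with an FDR of 0.822 in the edgeR exact test. Its 95% interval in limma voom ran from −0.04 to 1.66. CLDN23 came mostly from 2 pools, with 257 counts in C3.1 and 380 in M5.1.

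In the list of other tight junction membrane and scaffold genes, 9 of 13 were tested and 8 of these 9 had a log2 fold change below 0, with a median of −0.59 and 0 called. CGN, the gene of cingulin, which links the junction to myosin, had means of 43.27 ± 20.56 CPM (SD, n = 7) in Control and 33.93 ± 19.55 CPM (SD, n = 8) in Methionine, with a log2 fold change of −0.39. JAM3, a relative of F11R chosen after its values were seen, had 15.95 ± 12.42 and 2.884 ± 2.62 CPM (SD), with a log2 fold change of −2.42 and an FDR of 0.211 in the edgeR exact test. It ran from 0.889 to 29.05 CPM in the Control pools and from 0 to 6.261 CPM in the Methionine pools, so the groups overlapped. Its 95% interval in limma voom, which is not adjusted for the number of loci, ran from −4.95 to −0.72, and the exact permutation test over cows gave p = 0.114.

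The polarity complexes, which set up the apical membrane, had 9 of 12 genes tested and a median log2 fold change of −0.18. PRKCI, an atypical protein kinase C, had means of 146.2 ± 93.5 and 159.3 ± 85.11 CPM (SD), and LLGL1, a basolateral polarity gene, 255.8 ± 85.5 and 259.5 ± 87.04 CPM (SD), for Control (n = 7) and Methionine (n = 8). Their log2 fold changes were 0.12 and 0.07.

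Partners of the adherens junction had 7 of 12 genes tested and a median log2 fold change of −0.06. CTNND1, the gene of p120 catenin, which keeps cadherins at the membrane, had 579.8 ± 151.9 CPM (SD, n = 7) in Control and 621.5 ± 120.3 CPM (SD, n = 8) in Methionine. Afadin, listed as MLLT4, links nectins to actin and had 282.2 ± 49.63 and 241.2 ± 66.04 CPM (SD), with log2 fold changes of 0.11 for CTNND1 and −0.27 for MLLT4. JUP, the gene of plakoglobin, named here after its values were seen, had 1 count in the 15 pools together. The cadherins CDH2 and CDH3 had log2 fold changes of −0.05 and −0.64, with FDRs of 1.0 and 0.991 in the edgeR exact test, and CDH3 was highest in C2.2 at 26.93 CPM.

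Desmosome partners of DSP had 6 of 12 genes tested and a median log2 fold change of −0.53. DSG2, the desmosomal cadherin desmoglein-2, had 1088 ± 417.4 CPM (SD, n = 7) in Control and 941 ± 313 CPM (SD, n = 8) in Methionine, and PKP4, a plakophilin-related protein, had 47.48 ± 21.94 and 51.86 ± 18.9 CPM (SD). For the gap junctions, which join the cytoplasm of neighbouring cells, 3 of 7 connexin genes were tested. GJB5 had 110.1 ± 93.41 and 132.1 ± 34.09 CPM (SD). The log2 fold changes of DSG2, PKP4 and GJB5 were −0.27, 0.07 and 0.33.

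Pool C3.2, which was not in the comparison, had 5 members outside the range of the other 15 pools and 4 within it. CTNNB1 reached 492.3 CPM (859 counts, exact Poisson 95% interval 459.9 to 526.3 CPM) and F11R 522.0 CPM (911 counts, interval 488.7 to 557.1 CPM), both above all 15 pools. These levels were 5.75 and 3.28 times the Control medians. In C3.1 the same genes were at 85.67 and 43.51 CPM.

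TJP1, at 6.304 CPM (11 counts, interval 3.15 to 11.3 CPM), and CLDN4, at 8.596 CPM (15 counts, interval 4.81 to 14.2 CPM), lay below all 15 pools, 13.3 and 11.9 times under the Control medians. OCLN had 0 counts, which allows up to 1.719 CPM at a floor of 3 counts, against a lowest value of 5.366 CPM in the other pools. CLDN6 at 204.0 CPM, DSP at 6.304 CPM and CDH1 and CLDN7 at 0 counts lay within the range of the 15 pools. Of the tight junction members, F11R was thus high in this pool while TJP1, CLDN4 and OCLN were low. Intervals and floors cover counting error only, not the possible error in library preparation that the study names for this pool.

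**Figure D5:**
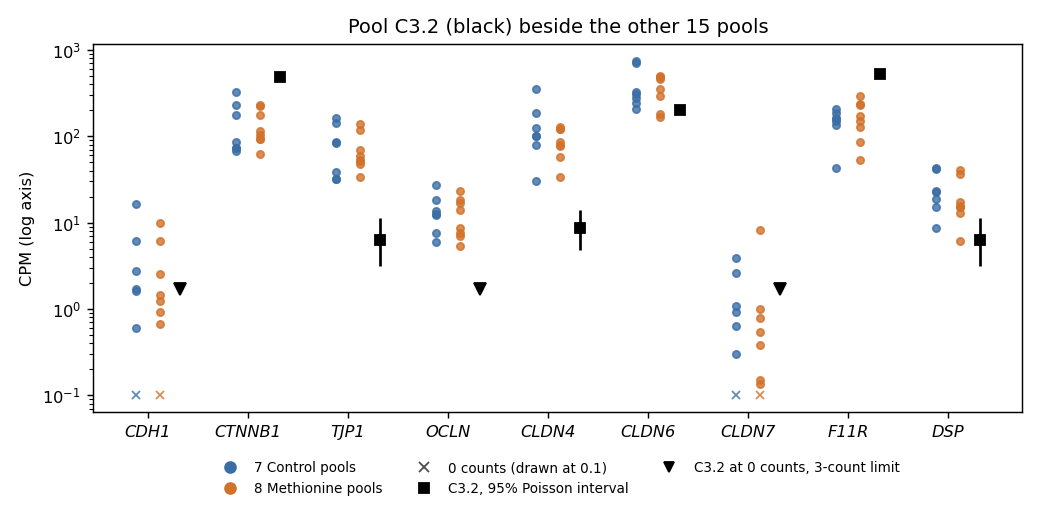
CPM of each junction gene (vertical axis, log scale) in pool C3.2 (black squares with exact Poisson 95% intervals, or triangles at the level of 3 counts where the count was 0) beside 7 Control pools (blue) and 8 Methionine pools (orange), with crosses for a count of 0. CTNNB1 (492.3 CPM) and F11R (522.0 CPM) lie above and TJP1, CLDN4 and OCLN below all other pools.

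Counted over members, 2 of 9 were above all 15 pools, beside 9.91% of the loci tested, and 3 of 9 below all, near the background of 35.2%. Of 12 named partners, 2 were above and 7 below. CGN, at 153.6 CPM, and LLGL1, at 582.8 CPM, exceeded the highest of the other pools, 69.9 and 391.6 CPM. CTNND1 fell short of the lowest of them, with 81.37 against 301.9 CPM, as did DSG2, with 49.86 against 496 CPM. Leukocyte markers summed to 165 CPM in C3.2, of which PTPRC gave 159.3 CPM, while NKG7, LCP1, CD52, CORO1A, CD3E and CD74 had no counts. Stromal markers summed to 89.4 CPM in this pool, of which DCN gave 77.36 CPM. The part of these markers in the values of the junction genes was not tested.

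With C3.2 in the fit, 0 members were called, as without it, but the log2 fold change of CTNNB1 was −0.85 in place of −0.19, that of F11R −0.56 in place of 0.16 and that of OCLN 0.02 in place of −0.17. The values of TJP1 and CLDN7 came closer to 0, at −0.09 and −0.08.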

How the data were processed

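The authors aligned reads to bosTau7 with TopHat2 2.0.4, assembled transcripts with Cufflinks 2.0.2, merged them with the NCBI annotation and counted reads per locus with HTSeq (intersection-nonempty mode). The strand setting is not given in the sources used here. The deposited unit is raw counts, 1 file per pool. A locus listed under several names was kept once. Counts were tested with edgeR 4.0.16 (exact test, TMM, tagwise dispersion, prior count 0.125) in R 4.3.3 over loci with a summed CPM of at least 15, and differences were called at an FDR under 0.10 (Benjamini-Hochberg) and at least 2-fold. The edgeR quasi-likelihood test, limma 3.58.1 (voom, cow as random effect) and DESeq2 1.42.0 were run beside it. Exact permutation tests on cow means of log2 CPM (prior count 2) enumerated the assignments of the cows in Python 3.11.15. SciPy 1.17.1 gave the Poisson intervals. Scripts were tested on simulated data. The members and lists were chosen with earlier results of these data known. All members, the 2 partners per list with the highest mean CPM and any partner with an FDR under 0.10, and the 5 loci most like CDH1 and TJP1, were named. Pool totals ranged from 1745048 to 7826542, and no 2 pools agreed within sampling noise (smallest chi-square per degree of freedom 64.4). No coordinates or sequences are given, as the gene table used was of another assembly. A few partners that the rule would name are not reported here.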

Additional observations from a re-analysis of the deposited data

Results flagged for a closer look

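Values that stood far from the rest of their group were looked for in 23 genes, the members and the named partners, over 46 groups of 7 or 8 pools. The measure was the gap to the next pool as a share of the group's range (Dixon's test), taken on log2 CPM after TMM normalization. The gaps therefore do not follow from the CPM printed beside them. Chance gives about 1 in 20 such groups, and 5 were found. CLDN7 was high in the Methionine pool M5.1, at 8.268 CPM, with a gap of 0.53 of the range. F11R was low in the Control pool C3.1, at 43.51 CPM (gap 0.73). Among partners, CLDN23 was high in C3.1, at 34.62 CPM (gap 0.69), LLGL1 was low in C4.1, at 100.7 CPM (gap 0.66), and CTNND1 was low in C4.2, at 301.9 CPM (gap 0.67). In pool C3.2, outside the comparison, CTNNB1 at 492.3 CPM and F11R at 522.0 CPM were above every pool that was compared. The cause of these values was not tested.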

How the results depend on the processing

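Under all 20 alternative settings, 0 members and 0 partners were called. The log2 fold change of a member kept its sign in 163 of 176 refits and turned in 13. It turned for OCLN (0.02) and F11R (−0.56) with all 16 pools, for CLDN7 (0.05) when only pool totals were used for scaling, and for CTNNB1 in limma voom (0.06). With 1 cow left out, the ranges were −0.97 to 1.17 for CDH1, −0.36 to 0.02 for CTNNB1, −0.47 to 0.04 for TJP1, −0.43 to 0.36 for CLDN6, −0.37 to 0.04 for OCLN, −0.55 to 0.32 for CLDN7 and −0.43 to 0.02 for the median of the members, with the highest values without cow 4, except OCLN (cow 7) and CLDN7 (cow 3). Of all loci, 110 were called in the comparison as reported, 67 by DESeq2, 356 with all 16 pools, 55 without a filter, 64 without C2.1, 62 (cow 8) to 153 (cow 4) with 1 cow left out, and 0 when each pool had to hold 10 counts or more, a filter that removed CDH1 and CLDN7. The quasi-likelihood test and limma voom called 0, with 909 and 421 loci at an unadjusted p under 0.05. A quasi-likelihood fit blocked on the pool number called 0 loci, and its log2 fold change of CTNNB1 was 0.06. Pool numbers name pools within a cow and did not pair pools across cows (mean correlation of deviations −0.007 for the same number, 0.007 for different numbers, 28 pairs each). Depth limits CDH1 and CLDN7, with median counts of 11 and 5. CLDN7 also did not pass the filter without cow 5 or with the pools of each cow summed. Its range with 1 cow left out therefore lacks cow 5, whose pool M5.1 held 40.8% of its counts.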
